A study of Mus musculus with 8 samples.

Results

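The 8 genes described here encode transcription factors that neurons switch on within minutes of synaptic activity: the zinc finger proteins Egr1, Egr2, Egr3 and Egr4, the orphan nuclear receptors Nr4a1, Nr4a2 and Nr4a3, and the basic helix-loop-helix PAS factor Npas4. They were chosen by symbol, and all 8 were found among the 54446 Ensembl gene identifiers of a raw read count table of mouse medial prefrontal cortex. All 8 passed the low-count filter that left 17636 genes for testing. In this series adeno-associated virus was injected into the medial prefrontal cortex of mice to alter the expression of a risk gene, here Ino80e, whose protein belongs to the chromatin remodeller INO80. Strand-specific libraries of poly(A) RNA from that region carried the label Ino80e overexpression in 4 cases and wild type in 4. The sources used here do not give strain, sex, age, the viral promoter, the time after injection or whether wild-type mice received a control virus. Nothing in the labels ties each library to its own mouse, so p-values measure only how these libraries varied, and part of that may be technical.

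These genes are known as immediate early genes. Calcium entry through glutamate receptors and voltage-gated channels activates kinases that phosphorylate CREB and factors bound with SRF, and these then start transcription without new protein synthesis. Egr1, Egr3 and Nr4a1 are known for a high basal level in cortical neurons, whereas Npas4 responds to depolarization and calcium rather than to growth factors. Several Egr proteins are restrained by the Nab corepressors, some Nr4a receptors can pair with retinoid X receptors, and Npas4 needs an Arnt partner to bind DNA.

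Library totals ran from 44762378 to 60490153 counts, and levels are given as CPM, a gene's share of its library's counts in parts per 1000000, after TMM scaling, which adjusts library totals for composition. Cortical excitatory neuron markers were all present, with Slc17a7 at 1791 to 2218 CPM and Tbr1 at 185 to 213 CPM. The targeted gene Ino80e stood at 74.1, 23.4, 23.3 and 45.04 CPM in overexpression replicates 1 to 4 and at 19.5 to 25.5 CPM in wild type. Overexpression replicates 2 and 3 thus lay within the wild-type range of the targeted gene and go against their label, so the fold changes of the 8 genes and the counts of the activity lists are also given without them. Between the groups, Ino80e had a log2 fold change of 0.91 (SE 0.42, edgeR adjusted p = 0.51). It shares 14.4% of its exon bases with Doc2a on the opposite strand, and the sources used here do not give the strand setting of the counting.

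On GRCm38, Egr2 (ENSMUSG00000037868) lies at chr10:67535475-67542188 and Egr3 (ENSMUSG00000033730) at chr14:70077203-70082614, both on the plus strand. Egr4 (ENSMUSG00000071341) lies at chr6:85511121-85513589 on the minus strand. Nr4a1 (ENSMUSG00000023034) lies at chr15:101254269-101274795 on the plus strand, Nr4a2 (ENSMUSG00000026826) at chr2:57106830-57124003 on the minus strand and Nr4a3 (ENSMUSG00000028341) at chr4:48045153-48086447 on the plus strand. Npas4 (ENSMUSG00000045903) lies at chr19:4984355-4990316 on the minus strand. No exon of these 8 genes overlaps an exon of another gene in the GENCODE M21 annotation.

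RefSeq promoter windows of GRCm38.p6, 250 bases before to 50 after a transcription start, were found for 6 of the 8 genes, with none for Egr1 and Egr3. They are shown because the CREB element is the textbook route to these genes, and its relation to their levels was not tested. Its core TGACG, or CGTCA on the other strand, was searched on both strands and was in at least 1 window of all 6 genes, against 20.8% of all 32851 windows and 31.6% of windows of at least 60% GC. The full palindrome TGACGTCA, present in 1.79% of windows, was in none of theirs. The windows of Nr4a1, Nr4a2 and Nr4a3, at 72.3%, 81.7% and 64.7% GC, held 4 cores each, and those of Egr4 and Npas4 held 2. At least 4 were held by 0.231% of all windows, a share not computed for GC-rich windows alone. The shares are per window and not per gene. Of 5 windows of Egr2, 3 overlapped each other and held the same 2 cores and the same CArG box, the site of SRF. That box overlapped no core. Another Egr2 window held a separate CArG box and no core. A CArG box is in 1.63% of all windows. Capitals below mark the cores and the CArG box, 5′ to 3′ on the strand of the gene. For Nr4a1, Nr4a2 and Egr4 all 250 bases before the start are given, and for Egr2, Npas4 and Nr4a3 a 30-base stretch. All 250 bases before the RefSeq start of Npas4, with the printed stretch, are exon of Npas4 in GENCODE M21. For Nr4a3 152 of the 250 bases are exon there, and the printed stretch lies outside them.
Nr4a1, plus strand, chr15:101266596-101266845: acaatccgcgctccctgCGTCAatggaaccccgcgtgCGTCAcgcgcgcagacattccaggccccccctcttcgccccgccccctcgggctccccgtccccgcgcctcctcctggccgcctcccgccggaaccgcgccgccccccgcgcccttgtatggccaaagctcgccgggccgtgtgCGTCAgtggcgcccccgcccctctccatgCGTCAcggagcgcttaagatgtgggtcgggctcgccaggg
Nr4a2, minus strand, chr2:57124004-57124253: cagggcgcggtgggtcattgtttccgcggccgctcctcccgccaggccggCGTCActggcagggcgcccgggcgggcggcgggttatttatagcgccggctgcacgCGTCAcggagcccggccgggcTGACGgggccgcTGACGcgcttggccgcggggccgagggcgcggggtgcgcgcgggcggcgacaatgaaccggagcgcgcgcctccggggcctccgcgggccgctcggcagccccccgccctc
Egr4, minus strand, chr6:85513590-85513839: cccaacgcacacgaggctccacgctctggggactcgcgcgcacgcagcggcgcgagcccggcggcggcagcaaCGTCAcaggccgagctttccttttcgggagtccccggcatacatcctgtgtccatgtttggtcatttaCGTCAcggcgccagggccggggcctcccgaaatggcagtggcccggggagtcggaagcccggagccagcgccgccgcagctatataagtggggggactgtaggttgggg
Egr2, plus strand, chr10:67537790-67537819: cctcagtCCATATATGGgcagcgaCGTCAc
Npas4, minus strand, chr19:4990131-4990160: tcccgttcgaCGTCAcgggaTGACGtcgga
Nr4a3, plus strand, chr4:48045068-48045097: ggagggTGACGtagcgtcccatgtCGTCAc
These matches describe letters in a window and not bound sites.

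Levels were compared between genes per length, as CPM divided by kilobases of exon (FPKM), over all 8 libraries. Egr1 had the highest mean at 64.5 ± 16.3 FPKM (SD, n = 8), followed by Egr3 at 38.1 ± 4.50 and Nr4a1 at 20.6 ± 7.21. Egr4 stood at 14.4 ± 2.63 FPKM, Npas4 at 7.83 ± 2.56 and Nr4a3 at 5.02 ± 0.797. Nr4a2 at 1.95 ± 0.288 FPKM and Egr2 at 1.77 ± 0.860 were the lowest. The ranges over libraries did not overlap between Egr3 and Nr4a1, nor between Nr4a3 and Nr4a2, and every other pair of neighbours in this order overlapped. The last places depended on the group, since Egr2 stood at 2.27 FPKM and Nr4a2 at 1.99 in wild type, and at 1.27 and 1.91 in the libraries labelled overexpression. Over all 8 libraries the order was the same with the longest annotated transcript as the length.

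None of the 8 genes passed the test between the libraries labelled overexpression and wild type (edgeR quasi-likelihood F test, Benjamini-Hochberg adjusted p under 0.05 over all genes), where 6 genes, or 0.034% of those tested, did (0.0113% higher and 0.0227% lower). DESeq2 and limma-voom called none of the 8 either. At an unadjusted p under 0.05, 2 of the 8 were lower, Egr3 and Npas4, and none was higher, where 10.7% of all genes passed this mark, 5.43% lower and 5.24% higher. Of the 8 genes 7 had a log2 fold change below 0, as had 49.5% of all genes, and their median was -0.24 against 0.0016 over all genes. The groups overlapped for all 8 genes, where 5.84% of genes had groups that did not (3.02% lower and 2.82% higher in the libraries labelled overexpression). What set the libraries apart was the spread within the group labelled overexpression, in which replicates 1 and 2 stood low for most of these genes and replicates 3 and 4 did not. In bulk tissue, fewer cells of a type and less RNA per cell cannot be told apart.

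**Figure D1:**
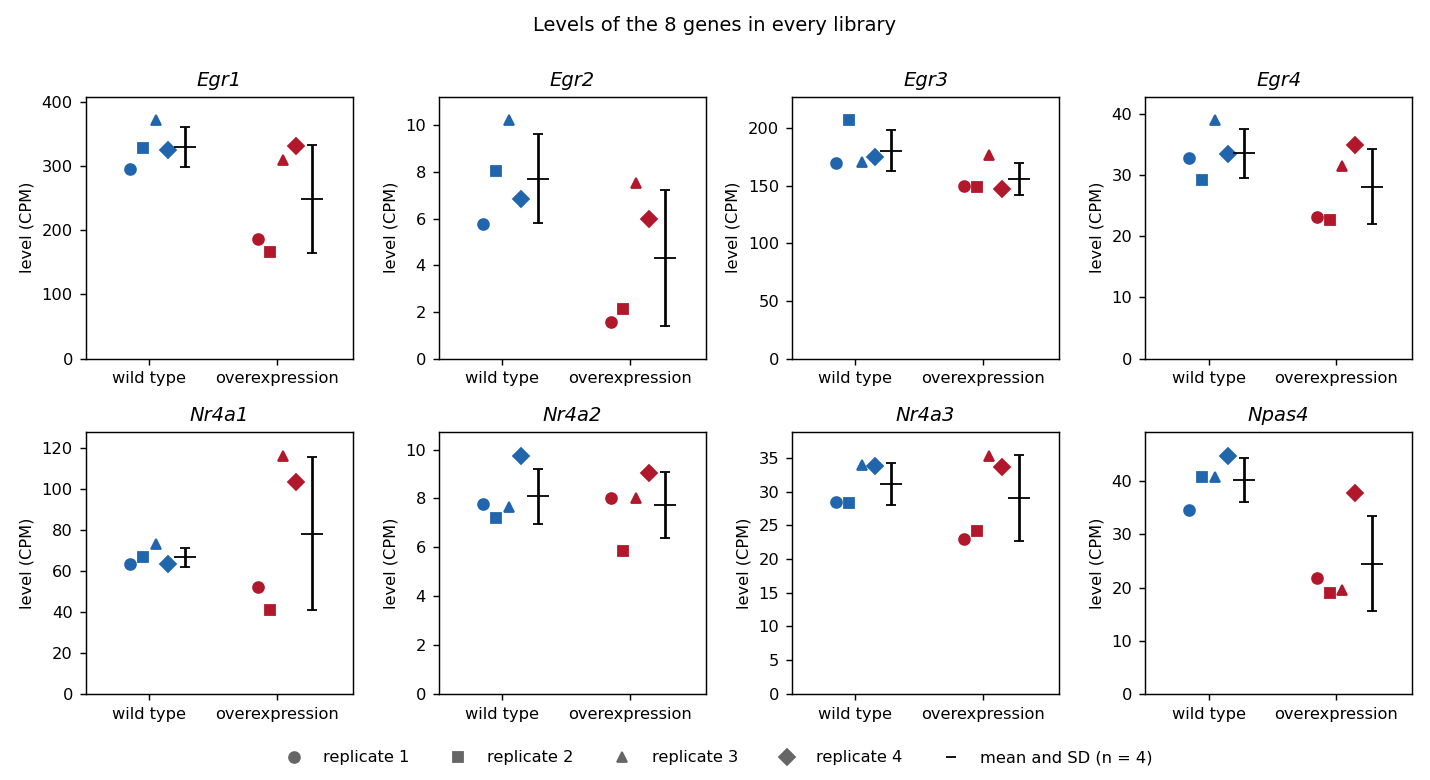
Level of each gene in CPM (vertical axis, from 0) in the 4 wild-type and 4 overexpression libraries. Symbols mark replicates 1 to 4, and the bar beside them is the mean and SD (n = 4). Egr1, Egr2, Egr4, Nr4a1 and Nr4a3 are lowest in overexpression replicates 1 and 2.

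Egr1 (ENSMUSG00000038418, chr18:34859823-34864984, plus strand) is a regulator of synaptic plasticity genes and was the most abundant of the 8 per length. It stood at 187, 166, 309 and 332 CPM in overexpression replicates 1 to 4. In wild type it stood at 296, 328, 371 and 325 CPM. Replicates 1 and 2 were thus below every wild-type library, at 56.7% and 50.2% of the wild-type mean, and replicates 3 and 4 were inside the wild-type range. For Egr1 the log2 fold change was -0.41 (SE 0.26, 95% interval -1.03 to 0.21, edgeR adjusted p = 0.60), with 2 of 4 libraries below the lowest wild-type library.

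Egr2, known best for myelination by Schwann cells and induced by activity in the cortex, showed the same split at a low level. Its level was 1.58, 2.11, 7.54 and 5.97 CPM in overexpression replicates 1 to 4, from 82, 102, 456 and 302 counts. Wild-type libraries held 5.77, 8.03, 10.2 and 6.85 CPM, from 259 to 560 counts. Replicates 1 and 2 were at 20.4% and 27.3% of the wild-type mean, the deepest deviation of any of the 8 genes. Between the groups, Egr2 had a log2 fold change of -0.84 with a wide interval (SE 0.54, 95% interval -2.15 to 0.47, edgeR adjusted p = 0.61).

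Egr4, a GC-rich member of the family (transcript GC 68.2%), stood at 23.1, 22.7, 31.4 and 35.02 CPM in overexpression replicates 1 to 4 and at 32.8, 29.3, 39.0 and 33.5 CPM in wild type. Replicates 1 and 2 were again the lowest of all 8 libraries. This gave Egr4 a log2 fold change of -0.26 (SE 0.15, 95% interval -0.61 to 0.084, edgeR adjusted p = 0.57).

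Egr3, which acts downstream of calcineurin and is known for its part in memory, did not show that split. It stood at 150.03, 149, 177 and 147 CPM in overexpression replicates 1 to 4 and at 170, 207, 170 and 175 CPM in wild type. Here replicates 1, 2 and 4 were below every wild-type library and replicate 3 was inside the wild-type range. Its log2 fold change was small, -0.21 (SE 0.069, 95% interval -0.36 to -0.068), with an adjusted p of 0.32 by edgeR. With no low-count filter it passed (adjusted p = 0.043 by edgeR), and over all 16 alternatives its adjusted p ran from 0.043 to 0.86.

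Npas4, a factor that sets inhibitory input onto active neurons, had the lowest ratio of group means after Egr2. Its level was 21.9, 18.9, 19.5 and 37.8 CPM in overexpression replicates 1 to 4 and 34.7, 40.8, 40.7 and 44.8 CPM in wild type. Replicates 1, 2 and 3 were at 54.3%, 47.1% and 48.5% of the wild-type mean, and replicate 4 at 94.0%, inside the wild-type range. Its mean was 24.5 ± 8.95 CPM in the libraries labelled overexpression and 40.2 ± 4.17 CPM in wild type (SD, n = 4), and the log2 fold change was -0.72 (SE 0.25, 95% interval -1.32 to -0.11, edgeR adjusted p = 0.41). Without overexpression replicate 4 it passed (log2 -1.002, SE 0.088, edgeR adjusted p = 2.8e-06), and without any other single library it did not. That fit kept replicates 2 and 3, with Ino80e inside the wild-type range, and left out replicate 4, with Ino80e at 45.04 CPM. Over all 16 alternatives the edgeR, DESeq2 or limma-voom adjusted p of Npas4 ran from 2.8e-06 to 0.91. Without overexpression replicates 2 and 3 the log2 fold change was -0.43 (SE 0.24, edgeR adjusted p = 0.74). On log2 CPM, the two-sided exact permutation test returned p = 0.0571 for Npas4, and this design cannot go below 0.0286. Over the other 7 genes exact permutation p-values ran from 0.1143 for Egr3 to 0.8286 for Nr4a1.

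Nr4a1, also known as Nur77, moved in both directions within the group labelled overexpression. It stood at 52.2, 40.8, 116 and 104 CPM in replicates 1 to 4, against 63.2, 66.9, 73.03 and 63.6 CPM in wild type. Replicates 1 and 2 were below every wild-type library and replicates 3 and 4 above every one, at 174% and 155% of the wild-type mean. The log2 fold change of 0.23 (SE 0.36, 95% interval -0.64 to 1.11, edgeR adjusted p = 0.85) averages these 2 pairs, and it was -0.026 without overexpression replicate 3.

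Nr4a3, also known as Nor1, stood at 23.0, 24.1, 35.3 and 33.6 CPM in overexpression replicates 1 to 4 and at 28.5, 28.4, 33.9 and 33.8 CPM in wild type. Replicates 1 and 2 were the lowest of all 8 libraries, and replicate 3 was just above the highest wild-type library. Nr4a3 had a log2 fold change of -0.10 (SE 0.15, 95% interval -0.43 to 0.23, edgeR adjusted p = 0.84).

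Nr4a2, also known as Nurr1, marks dopamine neurons of the midbrain and, in the forebrain, neurons of the claustrum and layer 6b. It stood at 8.04, 5.85, 8.02 and 9.06 CPM in overexpression replicates 1 to 4 and at 7.77, 7.20, 7.66 and 9.74 CPM in wild type. Only replicate 2 was outside the wild-type range. The log2 fold change was -0.064 (SE 0.14, 95% interval -0.35 to 0.22, edgeR adjusted p = 0.89). The 8 claustrum and layer 6b markers summed to 104.6 to 113 CPM in the libraries labelled overexpression and 105 to 108 CPM in wild type.

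Without overexpression replicates 2 and 3, whose Ino80e was at the wild-type level, none of the 8 genes was called (edgeR). Egr1 stood at -0.35 on the log2 scale, Egr2 at -1.03, Egr3 at -0.28, Egr4 at -0.21 and Npas4 at -0.43. For the nuclear receptors the values were 0.22 for Nr4a1, 0.078 for Nr4a2 and -0.14 for Nr4a3. This leaves replicate 1, low in most of these genes, and replicate 4. In replicate 4 the mean deviation of the 8 genes from wild type was 0.037 on the log2 scale. There Nr4a1 was above every wild-type library and Egr3 below every one.

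**Figure D2:**
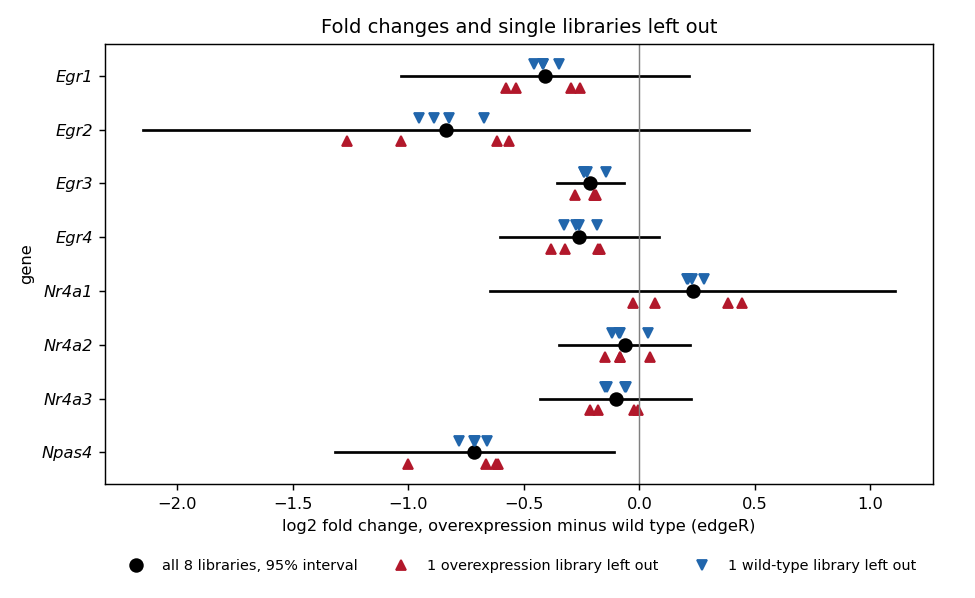
The log2 fold change of each gene (horizontal axis, overexpression minus wild type, edgeR) with all 8 libraries (black, with 95% interval) and with 1 library left out (triangles). Only the intervals of Egr3 and Npas4 exclude 0, and Npas4 reaches -1.002 without overexpression replicate 4, a library with Ino80e above the wild-type range.

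Egr1, Egr2, Egr4, Nr4a1 and Nr4a3, 5 of the 8 genes, had overexpression replicates 1 and 2 as the lowest pair of all 8 libraries, where 3.36% of all tested genes did. Replicate 2 was the lowest of all 8 libraries for Egr1, Egr4, Nr4a1, Nr4a2 and Npas4, as it was for 12.6% of tested genes. Replicate 1 was the lowest for Egr2 and Nr4a3, and replicate 4 for Egr3. The pattern of the low pair was chosen after its values were seen and is given with no test. The mean deviation of the 8 genes from their wild-type mean was -0.69 and -0.78 on the log2 scale in these 2 libraries, -0.032 and 0.037 in replicates 3 and 4, and -0.14 to 0.12 in wild type. Ino80e was high in replicate 1 and within the wild-type range in replicate 2, and its part in these low values was not tested. In overexpression replicate 3 the genes lay on both sides of wild type, with Npas4 1.04 below its wild-type mean on the log2 scale, Nr4a1 0.80 above it and Egr1 0.088 below. The ratio of Nr4a1 to Npas4 in CPM was 2.39, 2.15, 5.96 and 2.74 in overexpression replicates 1 to 4 and 1.82, 1.64, 1.79 and 1.42 in wild type. All 4 libraries labelled overexpression were thus above the wild-type range in this ratio, which was chosen after its values were seen. The ratio to Npas4 did the same for 19.6% of genes of at least 5 CPM.

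**Figure D3:**
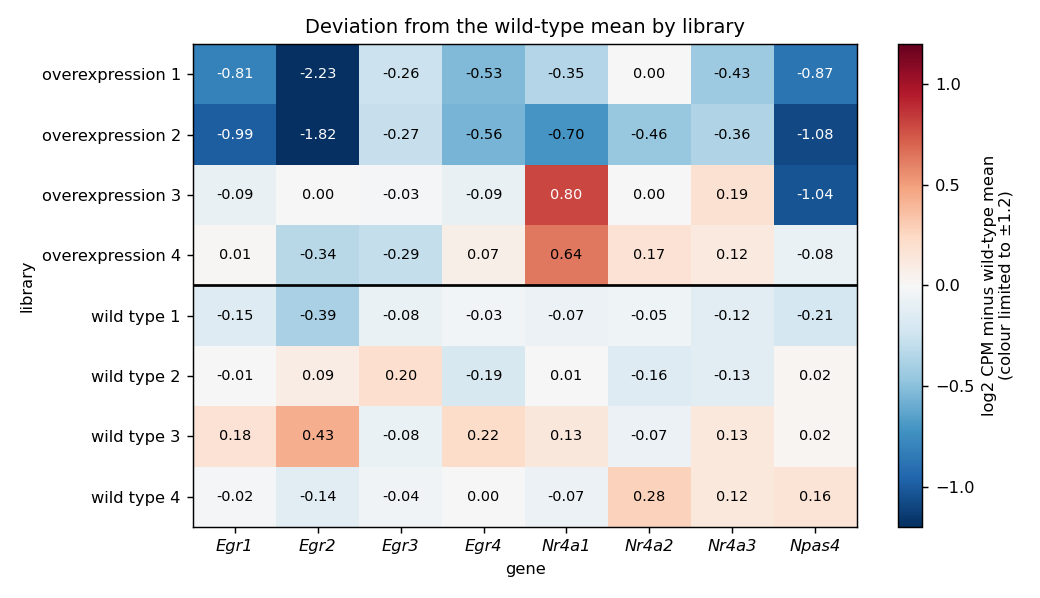
Log2 CPM of each gene (columns) in each library (rows) minus the mean of the 4 wild-type libraries, as colour and number. Blue fills most of the rows of overexpression replicates 1 and 2, while replicate 3 holds both the Npas4 value of -1.04 and the Nr4a1 value of 0.80.

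The closest pair of profiles among the 8 genes was Egr4 with Nr4a3, whose centred log2 CPM differed by a root mean square of 0.12 over the 8 libraries. Egr1 with Egr4 followed at 0.18. The farthest pair was Egr2 with Nr4a2, at 0.84, with the largest gap in overexpression replicate 1. Thus Egr4 was nearer to a gene of another family than to Egr3, from which it differed by 0.26.

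The spread between libraries of a group was larger in the libraries labelled overexpression for 7 of the 8 genes, all but Egr3. The SD of log2 CPM was 0.74 against 0.096 for Nr4a1, 0.51 against 0.13 for Egr1, 1.09 against 0.35 for Egr2 and 0.47 against 0.15 for Npas4, each over 4 libraries. It was 0.32 against 0.14 for Nr4a3, 0.31 against 0.17 for Egr4 and 0.27 against 0.19 for Nr4a2, and 0.12 against 0.14 for Egr3. Over 11331 genes of at least 5 CPM the median SD was 0.092 in the libraries labelled overexpression and 0.10 in wild type, and 45.1% of genes had the larger SD in the former. An excess of SD at least as large as that of Nr4a1 was seen in 0.0618% of these genes, and one at least as large as that of Npas4 in 0.309%. The share was 0.0441% for Egr2, 0.247% for Egr1, 1.58% for Nr4a3, 2.64% for Egr4 and 9.45% for Nr4a2. For Egr3, with no excess, it was 53.2%. These are descriptions with no test.

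**Figure D4:**
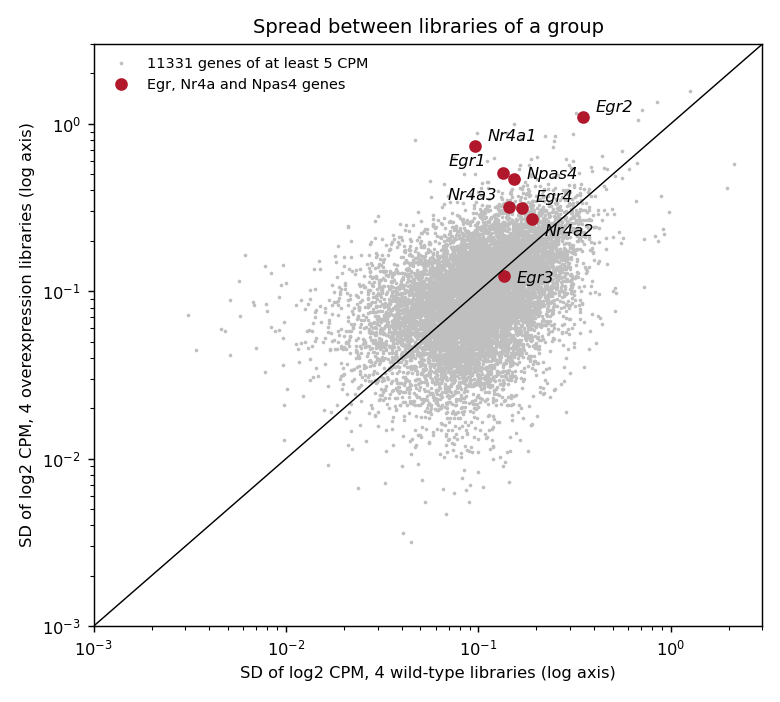
SD of log2 CPM over 4 wild-type libraries (horizontal, log axis) and over 4 overexpression libraries (vertical, log axis) for 11331 genes (grey) and the 8 genes (red), with the line of equal spread. All but Egr3 lie above the line, Nr4a1 farthest at 0.74 against 0.096.

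Genes outside the 8 with the most similar profile were sought among 10961 genes of at least 5 CPM with an ordinary symbol (no Gm, Rik or clone-named gene models), by the root mean square difference from the mean profile of the 8 genes over the 8 libraries. The closest were Sik1, Zfp830, Tiparp, Ipp, Junb, Kctd8, Pop1 and Fam122b, at 0.17 to 0.19, where the median gene was at 0.34. Sik1, a salt-inducible kinase that restrains CREB coactivators, stood at 11.8, 10.04, 16.99 and 18.3 CPM in overexpression replicates 1 to 4 and 13.3 to 16.6 CPM in wild type. Singly, the closest gene was Sik1 for Egr1, the AP-1 gene Fos for Egr2, Calhm5 for Egr3, Pop1 for Egr4 and Zfp830 for Nr4a3. Calhm5 stood at 5.94, 5.95, 7.14 and 6.21 CPM in overexpression replicates 1 to 4 and 6.60 to 8.14 CPM in wild type, highest in wild-type replicate 2 as Egr3 was. The closest was Dusp5, a nuclear dual-specificity phosphatase, for Nr4a1, Cep162 for Nr4a2 and the AP-1 gene Fosb for Npas4. Dusp5 stood at 7.77, 6.71, 13.7 and 12.4 CPM in overexpression replicates 1 to 4 against 7.37 to 8.44 CPM in wild type, with replicates 3 and 4 high as for Nr4a1. Fosb stood at 8.92, 10.7, 11.6 and 13.2 CPM against 14.8 to 17.6 CPM, below wild type in all 4 libraries.

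Among 32 other rapid activity-induced genes, 2 fell and none rose over all genes (edgeR), namely Btg2 and Fosb. Of all genes tested 0.0227% were called lower and 0.0113% higher. Btg2, an antiproliferative cofactor of mRNA decay, fell by 0.58 on the log2 scale (SE 0.10) with an edgeR adjusted p of 0.037. Fosb fell by 0.59 (SE 0.11) with an edgeR adjusted p of 0.042. The median log2 fold change of the list was 0.00088, next to 0.0016 over all genes, and 16 of 32 members were below 0. The count was 2 with DESeq2, 0 with limma-voom, 1 without overexpression replicate 1 or 4, and 0 without overexpression replicate 2 or 3 or any wild-type library. It was also 0 without overexpression replicates 2 and 3 together and without robust estimation. Without replicates 2 and 3 the median of the list was 0.077. The pattern of the low pair was chosen after its values were seen. Overexpression replicates 1 and 2 were the lowest pair for 9 of the 32 genes, where they were for 3.36% of all tested genes. Fos, the textbook marker of neuronal activation, was among them at 10.9, 8.03, 24.0 and 26.8 CPM in overexpression replicates 1 to 4 against 21.7 to 32.5 CPM in wild type (edgeR adjusted p = 0.60). Arc, which controls glutamate receptor endocytosis, stood at 106.8, 60.5, 185 and 199 CPM against 139 to 150 CPM in wild type, low in replicates 1 and 2 and high in 3 and 4 as Nr4a1 was (edgeR adjusted p = 0.96). Neither Csrnp1, at 0.42 on the log2 scale (SE 0.16), nor the matricellular protein gene Ccn1, at -0.46 (SE 0.17), passed the threshold. Csrnp1 shares 6.4% of its exon bases with an antisense gene.

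None of 30 delayed effector genes passed over all genes (edgeR), and 8 were lower and 1 higher at an unadjusted p under 0.05, where 5.43% and 5.24% of all genes were. DESeq2 called 2 of them, as did edgeR with no low-count filter, and limma-voom called none. Their median log2 fold change was -0.066, with 19 of 30 below 0, and -0.067 without overexpression replicates 2 and 3, where none passed either. Ptgs2, the inducible cyclooxygenase gene, stood at 9.79, 10.9, 9.24 and 8.82 CPM in overexpression replicates 1 to 4 and 14.2, 14.5, 14.2 and 11.1 CPM in wild type (log2 -0.48, SE 0.11, edgeR adjusted p = 0.18). All 4 libraries labelled overexpression were below the lowest wild-type library for Ptgs2, unlike for any of the 8 factors. The same held for Bdnf and Rasgrp1 of this list, and for 3.02% of all genes. For Nptx1 and Sst all 4 were above the highest wild-type library, as for 2.82% of all genes. On the log2 scale Rgs2, a regulator of G protein signalling, stood at -0.29 (SE 0.086), Rasgrp1, a Ras activator, at -0.16 (SE 0.050) and Nptx1, a neuronal pentraxin, at 0.15 (SE 0.043), all with an edgeR adjusted p of 0.31.

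Genes upstream of the 8 factors and their partners did not pass the test in any of the fits. Of 14 CREB, SRF and MEF2 factors and cofactors, 22 signalling genes and 12 partners and corepressors, edgeR, DESeq2 and limma-voom called 0. At an unadjusted edgeR p under 0.05 the counts were 2 higher for the factors, 2 lower for signalling genes and 1 higher for partners, where 5.24% of all genes were higher and 5.43% lower. The medians were 0.025, -0.024 and 0.040 on the log2 scale, and the first was -0.015 after GC correction. Srf, the serum response factor, stood at 0.15 (SE 0.063) on the log2 scale, the CREB coactivator Crtc1 at 0.14 (SE 0.055) and Creb1 itself at -0.099 (SE 0.061). The calcineurin subunits Ppp3r1 and Ppp3cb stood at -0.14 (SE 0.058) and -0.11 (SE 0.056), and the kinase gene Rps6ka3 at -0.15 (SE 0.063). Ppp3r1 shares 14.3% of its exon bases with Wdr92 on the same strand. The retinoid X receptor gene Rxrb, a partner of some Nr4a receptors, stood at 0.14 (SE 0.052).

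**Figure D5:**
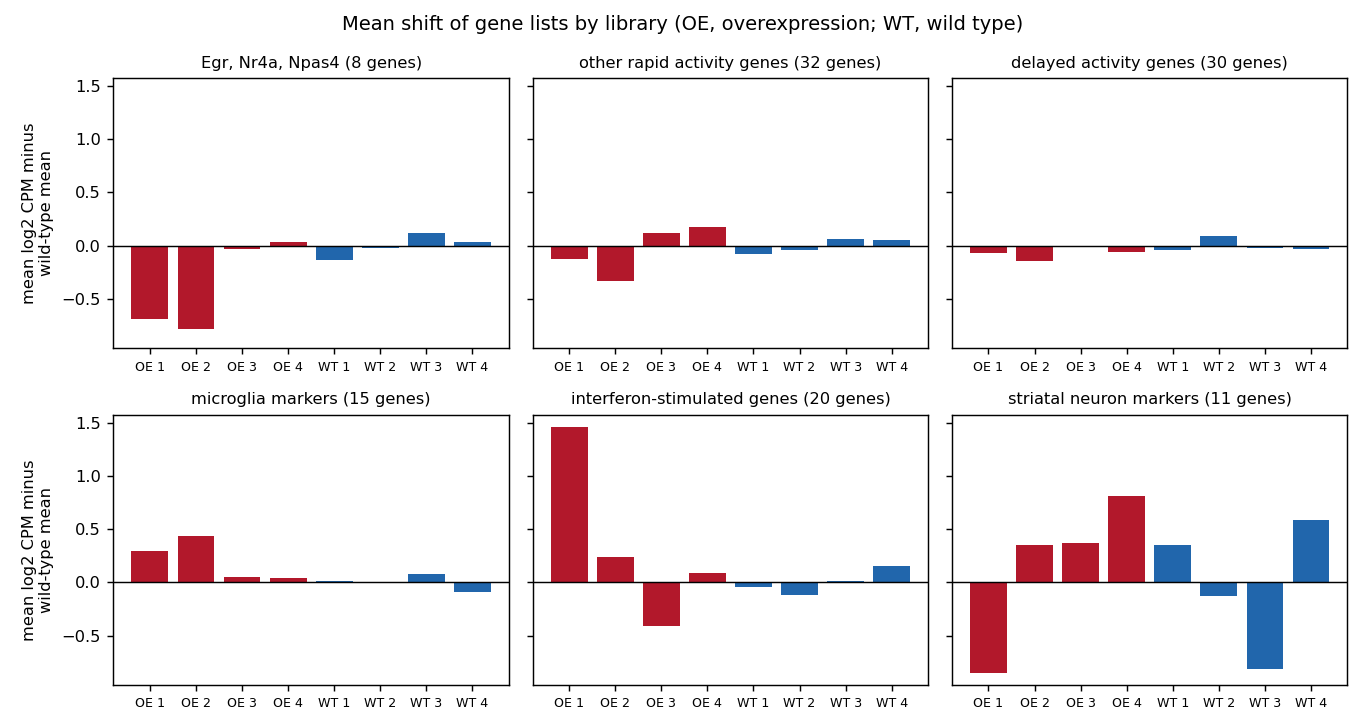
Mean log2 CPM of 6 gene lists in each library minus the mean of the 4 wild-type libraries (vertical axis), overexpression replicates in red and wild type in blue. Overexpression replicates 1 and 2 are low for the 8 factors (-0.69 and -0.78) and high for microglia markers (0.30 and 0.43).

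Markers of microglia stood higher in overexpression replicates 1 and 2, the libraries where most of the 8 genes were low. The mean shift of 15 microglia markers was 0.30, 0.43, 0.054 and 0.044 in overexpression replicates 1 to 4 and -0.088 to 0.075 in wild type. None was at 0, 12 of 15 had a log2 fold change above 0, and 7 of 15 were higher at an unadjusted edgeR p under 0.05, where 5.24% of all genes were. None passed over all genes, and their summed level was 523 to 669 CPM against 493 to 563 CPM in wild type. The 10 astrocyte markers shifted by 0.12 and 0.13 in replicates 1 and 2, by -0.013 and -0.035 in replicates 3 and 4, and by -0.048 to 0.096 in wild type. None was at 0, and their summed level was 5833 to 6754 CPM against 5921 to 6822 CPM in wild type. Of the 10 astrocyte markers 6 had a log2 fold change below 0 and 4 above, with a median of -0.0088. The largest was 0.48 for Gfap (SE 0.16). The part of microglia and astrocyte markers in the low levels of these 2 libraries was not tested. The 10 interneuron markers shifted by -0.10 to 0.048 and the 12 endothelial and mural markers by -0.058 to 0.048 in the libraries labelled overexpression. The 20 interferon-stimulated genes shifted by 1.45 in replicate 1 and 0.24 in replicate 2, and by -0.41 and 0.084 in replicates 3 and 4. Their summed level was 95.5 to 236 CPM against 102 to 111 CPM, and their part was not tested. Markers of striatal projection neurons, which also express Egr1 and Nr4a1, shifted by -0.85, 0.35, 0.37 and 0.81 in overexpression replicates 1 to 4. In wild type their shift ran from -0.81 in replicate 3 to 0.59 in replicate 4. The 11 striatal markers summed to 224 to 507 CPM in the libraries labelled overexpression and 237 to 451 CPM in wild type, with Isl1 at 0 in wild-type replicate 3. Cortical excitatory markers shifted by -0.057 to 0.016 in the libraries labelled overexpression and by -0.039 to 0.088 in wild type. Choroid plexus markers summed to 14.5 to 109 CPM in the libraries labelled overexpression and 8.14 to 1128 CPM in wild type, the highest value in wild-type replicate 4, with Kcne2 at 0 in wild-type replicate 1. Without that library only Nr4a2 among the 8 genes changed sign (0.038 on the log2 scale). Oligodendrocyte markers shifted by -0.33 in overexpression replicate 1 and by 0.057 to 0.16 in replicates 2 to 4. The part of striatal, choroid and oligodendrocyte markers in the values of the 8 genes was not tested.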

How the data were processed

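Raw read counts per Ensembl gene were deposited by the authors, 1 column per library. The submitters' processing notes list Trimmomatic 0.39, STAR 2.7.10, featureCounts 2.0.3, mm10 and GRCm38, without roles. Libraries were strand-specific per the labels' protocols. The strand setting, the annotation and the handling of multi-mapping reads were not given in the sources used here. Groups and replicate numbers came from sample titles. Symbols (54409 of 54446 identifiers), positions, exon lengths and transcript GC came from GENCODE M21 (GRCm38). The list symbols Mkl1, Mkl2, Cyr61, Ctgf and Smim32 were matched under their M21 names.

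Counts were filtered with filterByExpr (17636 genes), scaled by TMM and tested with edgeR 4.0.16 (R 4.3.3), robust quasi-likelihood, over all genes, without covariates. The SE is the log2 fold change over the square root of F, and log2 CPM has a prior count of 2. The exact permutation test used 70 arrangements. On simulated data (17636 genes, 50 changed per size) edgeR found 54% of genes changed 1.25-fold and 84% of those changed 1.5-fold. It found 94% of those changed 2-fold and 100% of those changed 4-fold, and made 14 false calls. Genes were simulated independently of each other, and those changed were drawn at random. These shares therefore do not carry over to genes with a wide SE, such as Egr2 (0.54) and Nr4a1 (0.36). Alternatives were RLE scaling, no filter, DESeq2 1.42.0, limma-voom 3.58.1, no robust estimation, a replicate block, a GC spline (5 degrees of freedom), each library left out, and overexpression replicates 2 and 3 left out.

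The members and lists were chosen with earlier results of these data known. Named genes are the 8 members, Ino80e, up to 4 genes of lowest p per activity list, and the closest profiles; others, such as Fos, Arc and marker genes, were named after their values were seen. Some genes that the rule names are not reported here.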

Additional observations from a re-analysis of the deposited data

Results flagged for a closer look

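In 3 of 18 groups of 4 libraries, each of the 8 genes and Ino80e in each group, 1 library stood apart by Dixon's test at the 95% level. Chance flags about 1 in 20 groups. Egr3 was highest in overexpression replicate 3, at 177 CPM with the other 3 libraries at 147 to 150.03 CPM, and the gap was 0.906 of the range. Egr3 was also highest in wild-type replicate 2, at 207 CPM with the others at 170 to 175 CPM, a gap of 0.866 of the range. Npas4 was highest in overexpression replicate 4, at 37.8 CPM with the others at 18.9 to 21.9 CPM, a gap of 0.845 of the range.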

How the results depend on the processing

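The count of all genes called was 6 by edgeR, 83 with no low-count filter, 44 with DESeq2, 2 with limma-voom, 2 without robust estimation, 1 without overexpression replicates 2 and 3, and 1 to 8 with 1 library left out. Of the 8 genes, none was called, against 1 (Egr3) with no low-count filter and 0 to 1 with 1 library left out (Npas4, without overexpression replicate 4). The cause was not tested. Egr1, Egr2, Egr3, Egr4, Nr4a3 and Npas4 were lower under all 16 alternatives. Nr4a2 changed sign without overexpression replicate 2 (0.048), without wild-type replicate 4 (0.038) and without overexpression replicates 2 and 3 (0.078), and Nr4a1 without overexpression replicate 3 (-0.026). With 1 library left out, Nr4a1 ran from -0.026 to 0.44 and Nr4a2 from -0.15 to 0.048. Nr4a3 ran from -0.21 (without overexpression replicate 3) to -0.0046 (without replicate 1), Egr1 from -0.58 to -0.26 (without replicate 2), Egr2 from -1.26 (without replicate 3) to -0.56, and Egr4 from -0.38 to -0.17 (without replicate 2). The GC correction gave 0.14 for Nr4a1 and -0.39 for Egr4, and none of the 8 genes was called. Samples of the same replicate number did not deviate together (correlation -0.043, -0.026, 0.074 and 0.049 over genes). With the replicate number as a block, 1 gene was called, and 0 of the 8 genes and 0 of the 32 rapid genes. The fewest counts behind a level were 82, for Egr2 in overexpression replicate 1. Scaling by RLE left 6 calls.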
